A study of Arabidopsis thaliana with 5 samples.

Results

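The anaphase-promoting complex, or cyclosome (APC/C), is a ubiquitin ligase that marks cyclins and other cell cycle proteins for destruction, and it works only with an activator protein bound to it. CDC20-type activators act in mitosis, where the spindle checkpoint holds them back until chromosomes are attached. Activators of the CCS52 type, called FIZZY-RELATED (FZR) in Arabidopsis and CDH1 in animals, act as cells leave mitosis and keep mitotic cyclins low. In plants they also drive endoreduplication, the repeated copying of DNA without division that accompanies growth of cotyledon and leaf cells.

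The activators followed here are CDC20.1 (AT4G33270), CDC20.2 (AT4G33260), FZR1 (AT4G11920, also CCS52A2), FZR2 (AT4G22910, also CCS52A1) and FZR3 (AT5G13840, also CCS52B). They were found through the locus that each probe's transcript accession matched. They are 5 of 25433 Arabidopsis thaliana genes with a probe, and 7 of 43603 probes. FZR3 had 3 probes and each other gene had 1. All 5 passed the filter on dim probes, as did 18122 genes in all. CDC20.1, CDC20.2, FZR1 and FZR2 lie on chromosome 4 and FZR3 on chromosome 5. CDC20.1 and CDC20.2 are direct neighbours, with 0 genes between them in the gene table, and are close copies of each other. Whether the probe of either also binds the transcript of the other was not tested.

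The RNA came from cotyledons, the seed leaves, of 7-day-old seedlings grown in days of 16 h light and 8 h dark. Wild-type Col-0 seedlings gave 2 biological replicates and the mutant line ckg gave 3, with 1 single-colour Agilent array each. The labels also write cgr for that line and give no allele or agent. From outside knowledge the line was taken to carry a mutation in AT5G50915, a basic helix-loop-helix factor of cytokinin-responsive growth. The comparison asks which transcripts differ in the mutant cotyledons.

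The 3 probes of AT5G50915 each stood well above background on both Col-0 arrays, and on 0 of the 3 ckg arrays. The share of 43803 non-control spots that were well above background was 66.7% to 70.0% on 4 arrays and 52.4% on ckg replicate 3, so dim genes were measured least well there. The Col-0 arrays lay on slide 1 and the ckg arrays on slide 2, and slide and genotype cannot be told apart. All 5 photosynthetic markers of cotyledon tissue were above background on every array, with a summed signal of 439 to 469 times the array's 75th percentile in Col-0 and 397 to 471 in ckg. Of the shoot apex markers, STM, CLV3, WUS and KNAT1 were above background on no array, and the summed signal of the 5 was 0.153 to 0.161 in Col-0 against 0.161 to 0.202 in ckg. ANT, the 1 apex marker above background, differed by -0.0017 ± 0.18 (SE). Of 4 root markers 0 to 2 were above background on an array, never PLT1 or WOX5, and they summed to 0.0201 to 0.0299 in Col-0 against 0.0224 to 0.0638 in ckg. The highest sum of both lists was on ckg replicate 3, where 0 root markers were above background. The lowest processed signal was 31.0 on that array and 2.68 to 4.01 on the others. These sums therefore do not show more apex or root RNA in ckg. In whole cotyledons, fewer cells of a type and less RNA per cell cannot be told apart.

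Among the activators, FZR2 had the clearest difference between the genotypes, with a mean 1.60-fold lower in ckg. FZR3 and CDC20.1 had lower means in ckg by less, and FZR1 and CDC20.2 had means that were close in both genotypes. The mean was lower in ckg for 5 of 5, as it was for 51.3% of all genes. None of the 5 passed limma's adjusted p of 0.05, a threshold that 0.0% of all genes tested passed (0 of 18122). At an unadjusted p under 0.05 stood 1 of the 5, FZR2, lower in ckg, against 9.81% of all genes lower and 8.3% higher at that p (18.1% in either direction). For 2 of the 5, FZR2 and CDC20.1, the ckg arrays all lay below both Col-0 arrays, against 22.3% of all genes in that direction and 41.6% in either. The median difference of the 5 was -0.22 on the log2 scale, against -0.0097 over all genes tested. Levels below are log2 processed signals minus the array's own 75th percentile, so a level of 0 is the signal at that percentile and a negative level lies below it. Levels of different genes come from different probes and are not compared.

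CDC20.1 and CDC20.2 encode the mitotic activators, and in Arabidopsis these copies carry the CDC20 function of dividing cells. CDC20.1 had scaled levels of -1.84 and -1.71 in Col-0, compared with -2.19, -1.86 and -1.95 in ckg. All 3 ckg arrays lay below both Col-0 arrays, but ckg replicate 2 did so by a narrow margin. Col-0 averaged -1.78 ± 0.091 (SD, n = 2) against -2.00 ± 0.17 (SD, n = 3) for ckg, a log2 difference of -0.22 ± 0.14 (SE). The 95% confidence interval ran from 1.49-fold lower to 1.10-fold higher in ckg, and limma's adjusted p was 0.443.

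CDC20.2 had scaled levels of -3.85 and -3.71 in Col-0, compared with -4.04, -3.57 and -3.82 in ckg. The groups overlapped, with 1 ckg array above both Col-0 arrays and 1 below both. The log2 difference was -0.028 ± 0.17 (SE), with an interval from 1.37-fold lower to 1.32-fold higher and an adjusted p of 0.943 in limma. Its processed signals, 149 to 220, were dim, and on ckg replicate 3 the probe was not well above background. The sign turned to 0.044 without Col-0 replicate 2 and to 0.090 without ckg replicate 1, and CDC20.2 was at -0.27 with the authors' deposited series table.

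On each array the CDC20.2 level was taken from the CDC20.1 level. The result was 2.01 and 2.00 in Col-0, compared with 1.86, 1.71 and 1.86 in ckg. It varied little in Col-0 (SD 0.011) and more in ckg (SD 0.087), where CDC20.2 was not well above background on replicate 3. The difference between the genotypes was -0.19, and all 3 ckg arrays lay below both Col-0 arrays. The exact permutation p was 0.1, the smallest that groups of 2 and 3 allow, and 0.4 after adjustment over the 4 pairs of activators compared. With the authors' deposited series table the same value was 0.046, of the opposite sign.

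The other 4 CDC20 copies listed (CDC20.3, CDC20.4, CDC20.5 and AT5G27945) were not tested, because none was above background on every array of either group. The probe of CDC20.3 was above background on 1 Col-0 array, that of CDC20.5 on 1 Col-0 and 1 ckg array, and those of CDC20.4 and AT5G27945 on 0 arrays.

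**Figure D1:**
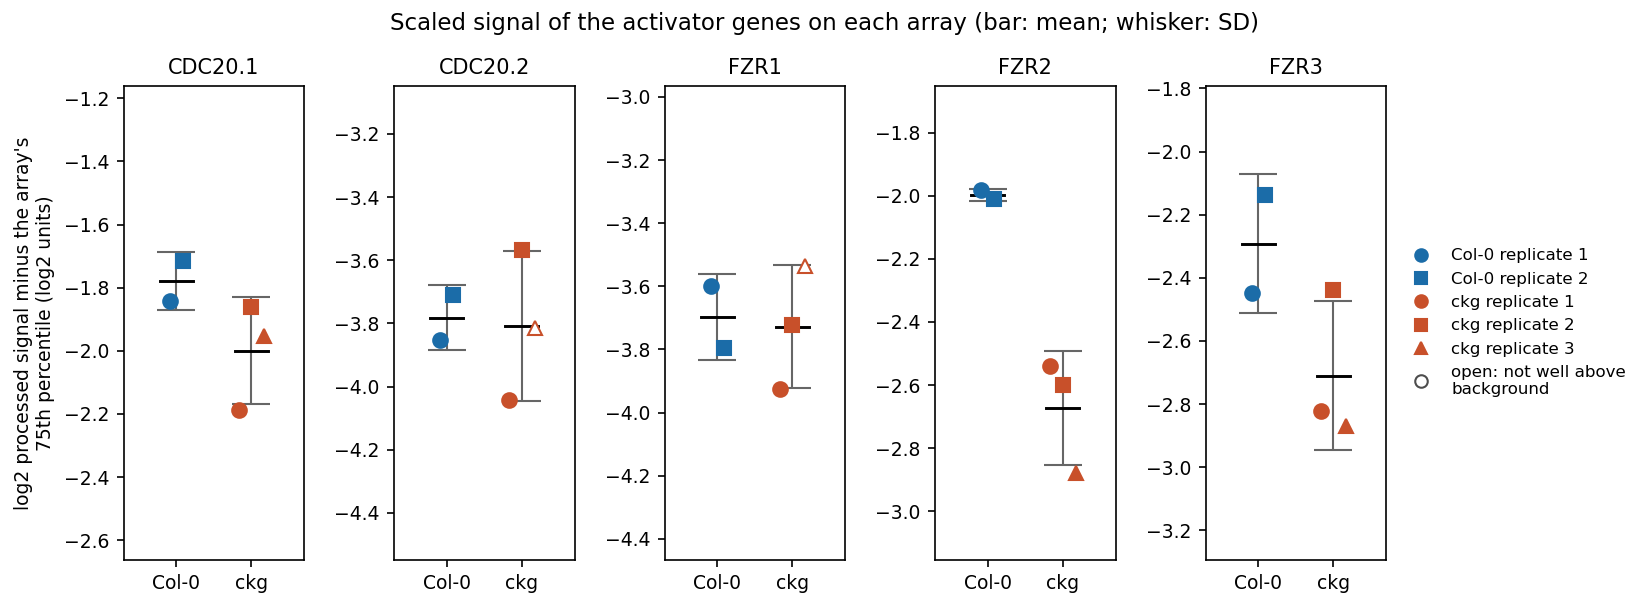
Scaled signal of each activator gene on each of the 5 arrays, as log2 of the processed signal minus the array's 75th percentile, with the same axis length in every panel. Blue marks are the 2 Col-0 arrays, orange marks the 3 ckg arrays, bars are means and whiskers SDs, and open marks were not well above background. The groups are clearly apart for FZR2 (-1.98 and -2.01 against -2.54 to -2.88) and overlap for CDC20.2, FZR1 and FZR3.

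FZR1, FZR2 and FZR3 encode the CCS52-type activators. FZR2 and FZR1 are the A-type pair, and loss of either is known in Arabidopsis to lower endoreduplication or upset the meristem, with FZR2 the one best known for leaf ploidy. FZR3 is the B-type, expressed in dividing cells nearer to mitosis. FZR2 had scaled levels of -1.98 and -2.01 in Col-0, compared with -2.54, -2.60 and -2.88 in ckg. All ckg arrays lay below both Col-0 arrays, and the gap between the groups, 0.53 log2 units, was wider than the range within Col-0 (0.028) or within ckg (0.34).

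For FZR2, Col-0 averaged -2.00 ± 0.020 (SD, n = 2) against -2.67 ± 0.18 (SD, n = 3) for ckg. The log2 difference was -0.68 ± 0.14 (SE), 1.60-fold lower in ckg, with a 95% confidence interval of 1.25-fold to 2.04-fold lower. Limma gave an unadjusted p of 0.00411, rank 545 of 18122 genes (a p this small or smaller for 3.01% of them), and an adjusted p of 0.137. The exact permutation p over the arrays was 0.1, the smallest these groups allow. Of the ckg arrays, replicate 3 was the lowest, and without it the difference was -0.57 with an adjusted p of 0.0926 in limma. Over the other settings tried FZR2 lay between -0.81 and -0.57, with lower ckg signal in 15 of 15. Not all of these could change the estimate. The filter settings, kept outlier spots, the mean of probes and the trended robust variance left it at -0.68. The replicate block gave the same -0.57 as leaving out ckg replicate 3. In the settings that kept both Col-0 arrays, the limma adjusted p of FZR2 ran from 0.0760 to 0.425.

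FZR1, the other A-type gene, had scaled levels of -3.60 and -3.79 in Col-0, compared with -3.93, -3.72 and -3.54 in ckg. Its groups overlapped, with 1 ckg array below and 1 above both Col-0 arrays. The log2 difference was -0.031 ± 0.15 (SE), the interval ran from 1.34-fold lower to 1.28-fold higher, and limma's adjusted p was 0.929. The direction was not stable, at 0.20 with normexp background correction and 0.15 with the authors' deposited series table, and above 0 without replicate 1 of Col-0 (0.066) or of ckg (0.068). The FZR1 probe was not well above background on ckg replicate 3.

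The contrast between the A-type genes was measured on each array as the FZR2 level minus the FZR1 level. It was 1.62 and 1.78 in Col-0, compared with 1.39, 1.12 and 0.66 in ckg, so all 3 ckg values lay below both Col-0 values. The difference was -0.64, with an exact permutation p of 0.2 and an adjusted p of 0.4. The test therefore does not show that FZR2 and FZR1 differed unequally, nor does it show that they differed alike. Without ckg replicate 3, on which FZR1 was near background, the value was -0.45.

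FZR3 had scaled levels of -2.45 and -2.14 in Col-0, compared with -2.82, -2.44 and -2.87 in ckg. Replicates 1 and 3 of ckg lay below both Col-0 arrays, while replicate 2 lay at about the lower Col-0 value. Col-0 averaged -2.29 ± 0.22 (SD, n = 2) against -2.71 ± 0.24 (SD, n = 3) for ckg. The log2 difference was -0.42 ± 0.19 (SE), with an interval from 1.85-fold lower to 1.04-fold higher and an adjusted p of 0.309 in limma. Left out in turn, the Col-0 arrays moved it to -0.57 (replicate 1) and -0.26 (replicate 2), and without ckg replicate 2 the unadjusted p was 0.0251. The FZR2 difference minus that of FZR3 was -0.26 (exact permutation p = 0.4, adjusted 0.4), and that of FZR1 lay 0.39 above that of FZR3 (exact permutation p = 0.4, adjusted 0.4).

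The other probes of FZR3 did not give the same value as the brightest one. Probe A_84_P802565 read -4.69 and -4.43 in Col-0, compared with -4.93, -4.71 and -5.95 in ckg, a difference of -0.64 ± 0.45 (SE). That difference was -0.26 without ckg replicate 3, on which the probe was not well above background. Probe A_84_P824862 read -4.49 and -3.83 in Col-0, compared with -4.11, -3.89 and -4.36 in ckg, a difference of 0.041 ± 0.28 (SE). It was not well above background on ckg replicate 3 either, and without that array the difference was 0.16. The 3 probes thus agreed on neither size nor sign, and the mean over them was -0.34 ± 0.26.

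**Figure D2:**
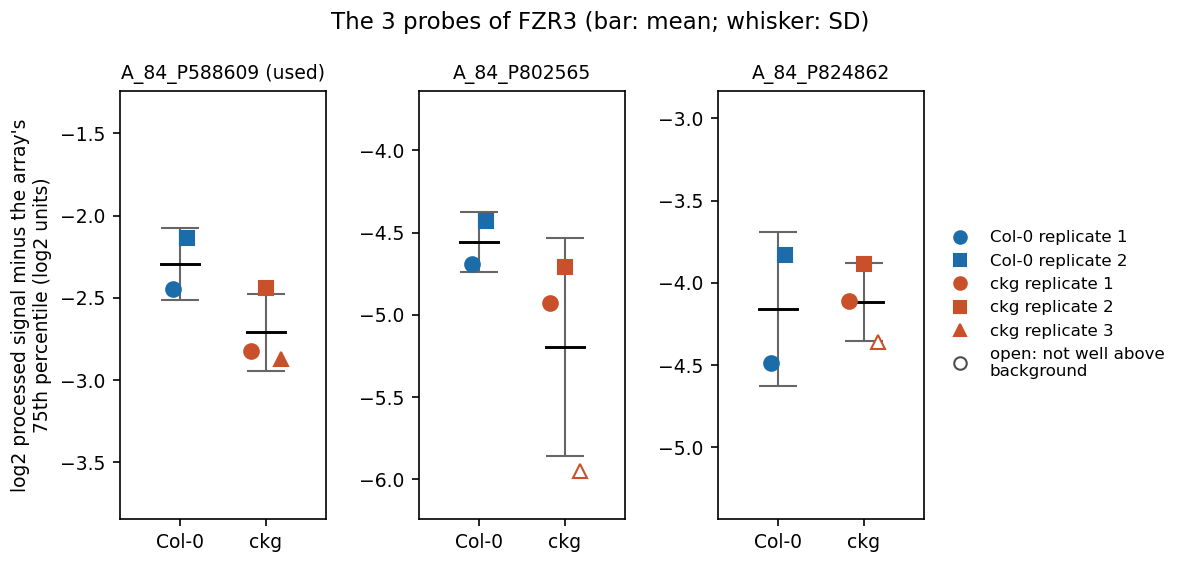
Scaled signal of the 3 probes of FZR3 on each array, as log2 of the processed signal minus the array's 75th percentile; bars are means, whiskers SDs and open marks were not well above background. The brightest probe and A_84_P802565 have lower ckg means (-0.42 and -0.64), while A_84_P824862 lies at 0.041.

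**Figure D3:**
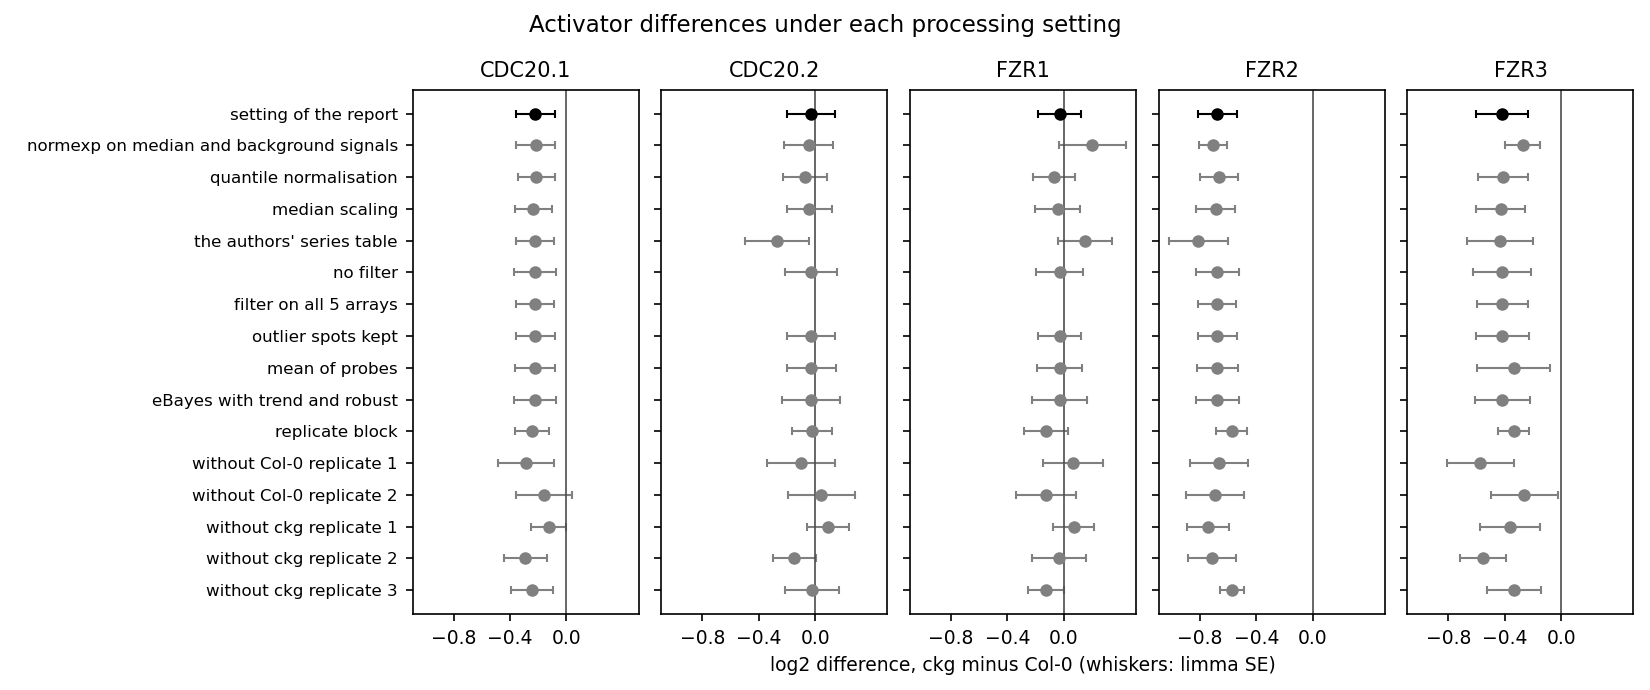
Log2 difference, ckg minus Col-0, of each activator under the setting of the report (black) and each alternative (grey), with limma SEs as whiskers. FZR2 stays between -0.81 and -0.57, and FZR1 and CDC20.2 lie on both sides of 0; for those 2 genes the filter on all 5 arrays leaves no value.

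The genes with a symbol whose 5-array profiles lay nearest to each activator were ranked by the root mean square distance of centred log2 levels, over 7955 genes. For FZR2 they were CID10 (0.035), WLIM2a (0.042) and GH9B5 (0.043). For FZR3 they were PRT1 (0.030), KNAT7 (0.054) and IRX9 (0.054). For FZR1 they were ET2 (0.023), MDA1 (0.024) and CARB (0.028). For CDC20.1 they were RHA2A (0.014), XIJ (0.030) and GBF4 (0.035), and for CDC20.2 CYP71B35 (0.030), UGT78D1 (0.031) and CF9 (0.032). Among the activators, distances ran from 0.11 (CDC20.1 and CDC20.2) to 0.40 (FZR2 and FZR1). CDC20.1 lay 0.16 from FZR1 and 0.16 from FZR3, while FZR3 lay 0.22 from FZR2 and 0.32 from FZR1. These distances describe 5 arrays and carry no test.

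The subunits of the complex to which the activators bind had mostly lower means in ckg. Of 12 subunits listed 11 were tested, 8 with a lower and 3 with a higher mean, against 51.3% of all genes lower. The median difference was -0.30, the value of APC11. APC4 and APC11, among the lower, were tested through Col-0 alone, and both turned sign with normexp. On ckg replicate 3 APC4 read -5.64, against -4.40 and -4.38 on the other ckg arrays and -4.44 and -4.19 in Col-0. APC11 read -5.10 there, against -4.37 and -4.11 on the other ckg arrays and -4.16 and -4.30 in Col-0. None of the 11 passed limma's adjusted threshold. At an unadjusted p under 0.05 there were 5 lower and 0 higher, against 9.81% and 8.3% of all genes. APC8, a tetratricopeptide repeat subunit of the scaffold, read -1.67 and -1.67 in Col-0, compared with -2.60, -2.42 and -2.87 in ckg. Its difference was -0.96 ± 0.16 (SE), with an adjusted p of 0.113 in limma, and -0.59 with normexp. The groups did not overlap.

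APC6, of the same repeat family, read -1.72 and -2.03 in Col-0, compared with -2.65, -2.59 and -3.06 in ckg, a difference of -0.89 ± 0.19. All ckg arrays again lay below both Col-0 arrays, and its adjusted p was 0.143 in limma. The locus AT1G06590 differed by -0.29 ± 0.10. The rest of the 5 were CDC27a, a repeat subunit (-0.61 ± 0.22), and APC10, which helps to hold substrates (-0.27 ± 0.11), though another probe of APC10 gave 0.035 and the sign turned with normexp and the series table. CDC27a was tested through Col-0 alone, since its probe was well above background on only 2 ckg arrays. HBT, the second Arabidopsis copy of the CDC27 subunit, had the highest difference of the list (0.64 ± 0.43), with Col-0 values of -0.42 and -1.84 that lay far apart. The count of 5 became 2 without either Col-0 array and 3 without ckg replicate 2.

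Inhibitors and modulators of the complex gave 1 lower gene of 5 at an unadjusted p under 0.05, against 9.81% of all genes. This was UVI4, an inhibitor that in Arabidopsis acts on the FZR2 protein. UVI4, like OSD1 and PANS2, was tested only because both Col-0 arrays passed the filter. It read -4.30 and -4.18 in Col-0, compared with -4.78, -4.94 and -6.00 in ckg, with ckg replicate 3 the lowest and not well above background. Its difference was -1.004 ± 0.38 (SE; limma adjusted p = 0.267), and -0.63 without ckg replicate 3. OSD1, a relative of UVI4 that restrains the complex in mitosis and meiosis, was at -0.11 ± 0.28 and turned positive with normexp or the series table. SAMBA, a plant regulator of the complex, was at 0.21 ± 0.19. PANS1 and PANS2, protectors of centromere cohesion, were at -0.16 ± 0.13 and -0.22 ± 0.29, the second above 0 with normexp. UVI4 was at -0.54 with normexp and -1.88 with quantile normalisation (unadjusted p = 0.200 in limma), and it no longer stood at that p when either Col-0 array or ckg replicate 2 was left out. The count became 0 without Col-0 replicate 1 or ckg replicate 2, and stayed at 1 without Col-0 replicate 2 because PANS2 took the place of UVI4 (-0.68).

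Both ubiquitin-conjugating enzymes listed for the complex had lower means, and 1 of the 2, UBC19, stood at an unadjusted p under 0.05, against 9.81% of all genes lower. UBC19 was at -0.43 ± 0.12 (limma adjusted p = 0.202), and its spot on ckg replicate 1 was an outlier that the fit left out (-0.79 with it kept, not at that p). UBC20 was at -0.18 ± 0.11, but its other probe gave 0.49 and the mean of its probes was higher in ckg. Without either Col-0 array or without ckg replicate 2, UBC19 no longer stood at an unadjusted p under 0.05.

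Of 8 spindle checkpoint genes 7 were tested, 5 with a lower mean, against 51.3% of all genes, and a median of -0.33. Among these 5, BUBR1, AT5G05510 and BUB3.1 were tested only because both Col-0 arrays passed the filter. At an unadjusted p under 0.05 stood 1, PPK1 (-0.54 ± 0.16, limma adjusted p = 0.202), a protein kinase, against 9.81% of all genes lower at that p. MAD2 and BUBR1, checkpoint proteins that bind CDC20, were at -0.33 ± 0.13 and -0.58 ± 0.26. Leaving out Col-0 replicate 1 turned the count of 1 to 0, and leaving out replicate 2 of either group turned it to 2.

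A- and B-type cyclins, the substrates that the activators bring to the complex, had mostly lower means in ckg. Of 17 tested of 19, 14 had a lower mean in ckg, with a median of -0.56. At an unadjusted p under 0.05 there were 9 lower and 0 higher, against 9.81% and 8.3% of all genes. In 11 every ckg array lay below both Col-0 arrays, against 22.3% of all genes. None passed the adjusted threshold. Among the 9, CYCA2;4, CYCA3;1, CYCB2;2, CYCB2;3 and CYCB2;4 were well above background on only 2 ckg arrays. They were tested only because both Col-0 arrays passed the filter, and so was CYCA3;4 among the 11. With the filter on all 5 arrays the count of 9 became 4. CYCA2;3, an A-type cyclin that limits endoreduplication and is degraded through FZR2 in Arabidopsis, read -2.08 and -2.11 in Col-0, compared with -2.95, -2.81 and -2.99 in ckg. Its difference was -0.82 ± 0.11 (limma adjusted p = 0.0959), and its other probe gave -0.54.

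CYCA3;1, an A-type cyclin of the early cell cycle, was at -1.04 ± 0.21. That value was -0.35 with normexp, -1.53 with quantile normalisation and -0.53 with the series table, where its unadjusted limma p was 0.0751. CYCB2;2, a mitotic B-type cyclin, was at -0.58 ± 0.12. CYCA3;2, chosen after its values were seen, was at -1.95 ± 1.27. The size of this difference rested on ckg replicate 1 (-4.98, compared with -0.92 and -1.26 on the other ckg arrays). Every ckg array lay below both Col-0 arrays (-0.36 and -0.50), and the other CYCA3;2 probe gave -0.81. The count of 9 became 5 without either Col-0 array. Lower cyclin signal in these samples was known when the list was made, so its direction is not independent evidence.

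**Figure D4:**
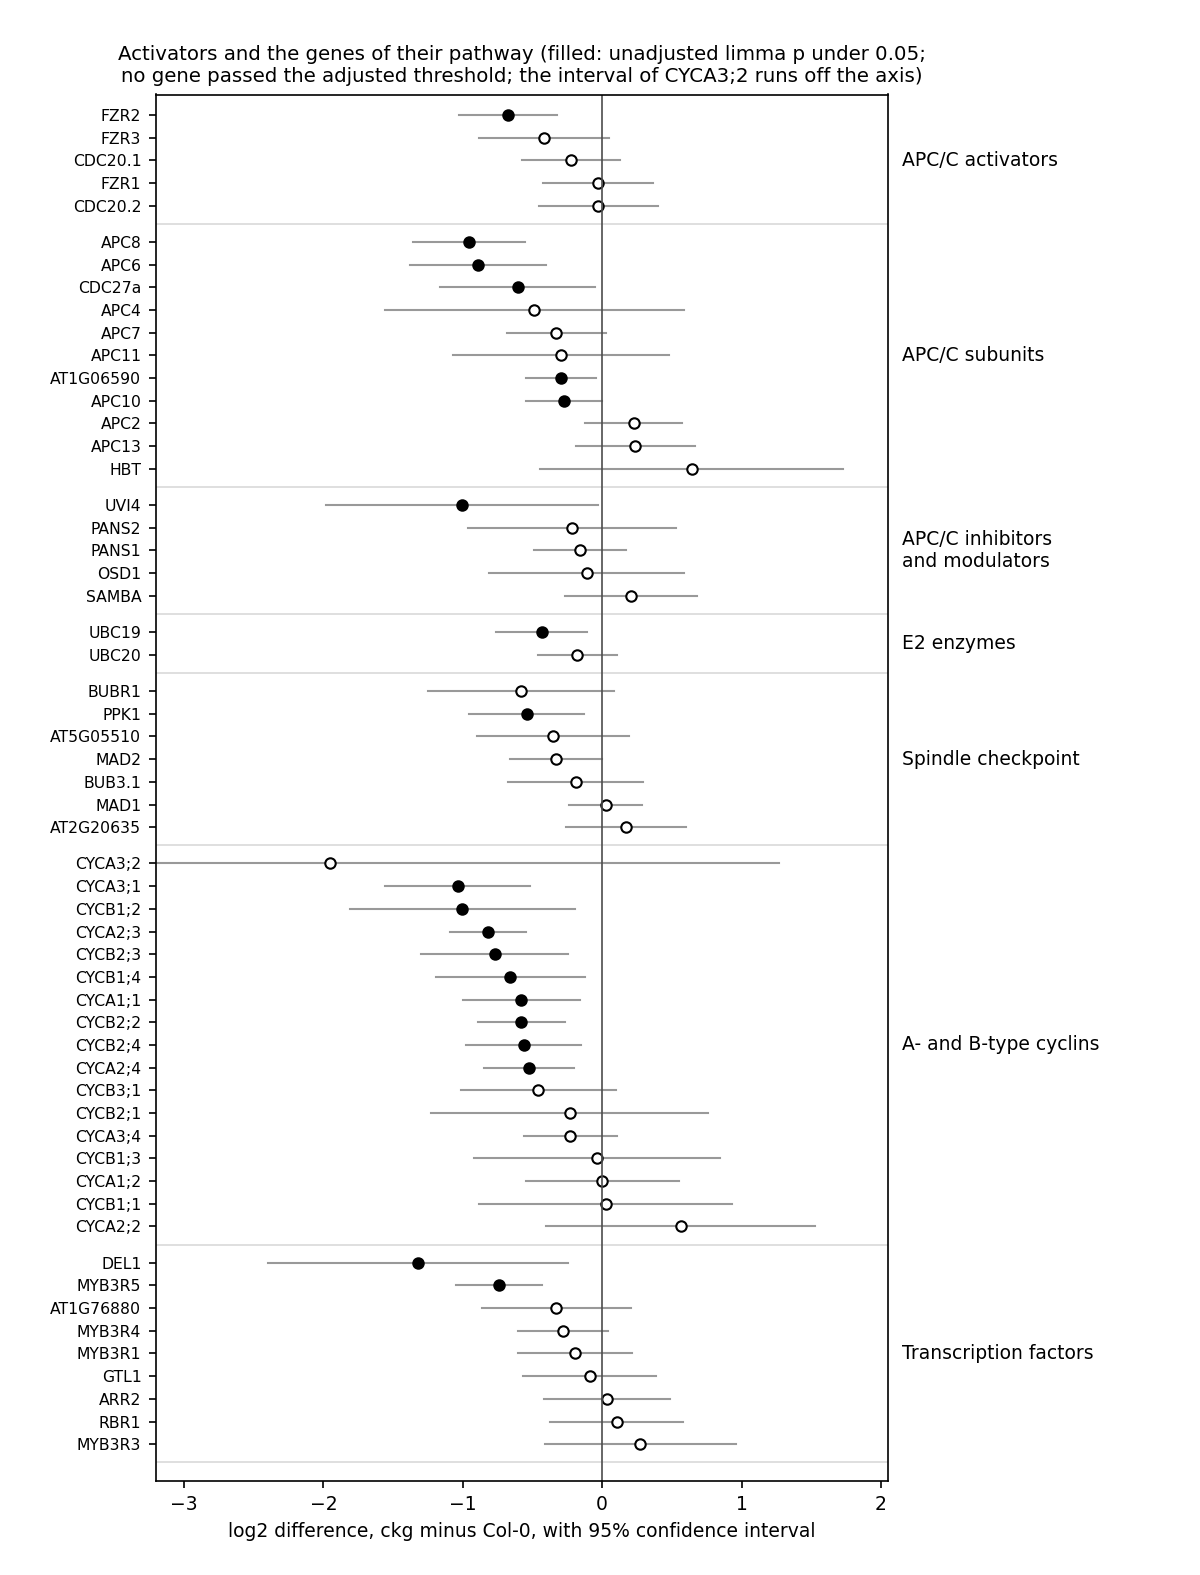
Log2 difference, ckg minus Col-0, with its 95% confidence interval for the 5 activators and the other tested genes of their pathway, by role. Filled points stand at an unadjusted limma p under 0.05 (FZR2 among the activators, 5 subunits, UVI4, UBC19, PPK1, 9 cyclins, DEL1 and MYB3R5), all lower in ckg, and no gene passed the adjusted threshold.

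Transcription factors described in Arabidopsis as acting on activator genes were listed together with RBR1, and 9 of these 9 genes were tested. Of them 6 had a lower mean, against 51.3% of all genes, and the median was -0.20. DEL1, an atypical E2F factor that represses FZR1, read -3.94 and -4.03 in Col-0, compared with -4.93, -4.83 and -6.15 in ckg, with ckg replicate 3 again lowest and not well above background. Its difference was -1.32 ± 0.43 (limma adjusted p = 0.215), beside -0.031 for FZR1 itself. MYB3R5, a MYB factor that represses mitotic genes outside division, read -3.25 and -3.06 in Col-0, compared with -3.78, -3.93 and -3.97 in ckg. Its difference was -0.74 ± 0.12 (limma adjusted p = 0.113), with every ckg array below both Col-0 arrays. The MYB3R5 probe, too, was not well above background on ckg replicate 3.

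GTL1, a trihelix factor that represses FZR2 in trichomes, was at -0.090 ± 0.19, with its other probes at -0.086 and -0.48. ARR2, a cytokinin response regulator that activates FZR2 in roots, was at 0.033 ± 0.18 and below 0 with the series table. RBR1, the retinoblastoma protein, was at 0.10 ± 0.19, while its other probe gave 1.10. MYB3R1, MYB3R4 and MYB3R3 were at -0.20 ± 0.16, -0.28 ± 0.13 and 0.27 ± 0.27, and the locus AT1G76880 at -0.33 ± 0.21. At an unadjusted p under 0.05 stood 2 of the 9, DEL1 and MYB3R5, both lower, against 9.81% of all genes. Both were tested only because the Col-0 arrays passed the filter, and the count was 0 with the filter on all 5 arrays. DEL1 was at -0.66 with normexp and -2.24 with quantile normalisation, and it no longer stood at that p with the latter, with no filter or without either Col-0 array. The count became 1 without Col-0 replicate 2, and stayed at 2 without Col-0 replicate 1 because AT1G76880 took the place of DEL1 (-0.66).

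Cells of the stomatal lineage divide in cotyledons of this age, and all 5 of their markers were tested. Their summed signal was 1.35 to 1.81 times the array's 75th percentile in Col-0 and 1.39 to 1.57 in ckg, so the groups overlapped. The bright markers FAMA and TMM weighed most in this sum, and TMM alone read -2.88 and -0.82 in Col-0. On ckg replicate 3 only 2 of the 5 were above background. In 2 of the 5, FAMA and MUTE, every ckg array lay below both Col-0 arrays, against 22.3% of all genes. Of the 5, 3 had a lower mean in ckg, against 51.3% of all genes. At an unadjusted p under 0.05 stood 1, MUTE (-0.76 ± 0.19), against 9.81% of all genes lower. MUTE was tested through Col-0 alone, since its probe was well above background on only 2 ckg arrays. The part of these cells in the activator values was not tested.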

How the data were processed

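Agilent Feature Extraction 10.7.1.1 produced the spot values, per the file headers. The deposited intensities used are background-subtracted, detrended processed signals with no scaling between arrays, plus raw median intensities. The authors' other deposited values that were used are spot flags of 0 or 1, and 0 spots were saturated. In the series table that the authors deposited the values are on a log2 scale, with a normalisation no header states; its ranks equalled those of the raw median signal (Spearman 1 on each array), the median was 8.41 on each array, and whether background was removed stays unknown. It served as an alternative, as did normexp, run on the median signal because the planned mean signal is not among the columns used here.

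Outlier spots (35 to 197 per array) and control spots were left out, and log2 processed signal minus each array's 75th percentile was used. Accessions were matched to TAIR10.1 loci (34358 of 43603 probes). A gene was represented by its brightest probe and tested where all arrays of 1 group or more had that probe well above background. The comparison, ckg minus Col-0 on 5 arrays, was fitted with limma 3.58.1 in R 4.3.3 (lmFit, eBayes, two-sided, Benjamini-Hochberg over all 18122 genes, threshold 0.05). The fit was also run on simulated data. The simulated differences were far larger than those of the activators, so that run does not cover differences of their size. Single values were tested by a two-sided exact permutation over 10 splits. The number of arrays (3 residual degrees of freedom) limits the precision. No coordinates or sequences are printed, since no genome of the array's build was used here, and promoter motifs were not searched.

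Named were all activators and their probes, the 3 genes of each list with the smallest p (all of lists of up to 5 genes and of the transcription factors) and nearest profiles. Members and lists were chosen with earlier results of these data known. Genes named outside the rule (CDC27a, APC10, HBT, CYCA3;2 and markers) were chosen after their values were seen. Groups came from the labels.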

Additional observations from a re-analysis of the deposited data

How the results depend on the processing

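In 15 alternatives each, the lower ckg signal of FZR2, FZR3 and CDC20.1 kept its direction. The filter settings, kept outlier spots and the trended robust variance left these estimates unchanged. So did the mean of probes for FZR2 and CDC20.1, which have 1 probe each. The replicate block repeated the estimate without ckg replicate 3. Only the remaining alternatives could have turned a sign. No activator passed the adjusted threshold in any alternative that kept both Col-0 arrays. Without 1 array at a time FZR2 ran from -0.74 to -0.57, FZR3 from -0.57 to -0.26, CDC20.1 from -0.29 to -0.13, CDC20.2 from -0.15 to 0.090 and FZR1 from -0.13 to 0.068. FZR1 was reversed with normexp (0.20) and the series table (0.15), and so was the CDC20.1 minus CDC20.2 value with that table (0.046); the cause was not tested. The filter on all 5 arrays gave no value for CDC20.2 and FZR1, because their probes were dim on ckg replicate 3.

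Genes past the adjusted p were 3 with normexp and with the series table, 1 with median scaling, 4 with a trended robust variance and 0 to 8 without 1 array. Those past the unadjusted p (3283) were 1624 to 4211 without 1 array. Lower subunits at that p were 3 with normexp, quantile normalisation, the series table, no filter and the trended robust variance, and 2 to 5 without 1 array. Lower inhibitors were 0 with quantile normalisation, the series table, no filter and the filter on all 5 arrays, and 0 to 1 without 1 array. Lower conjugating enzymes were 0 with the filter on all 5 arrays, with outlier spots kept and with the replicate block, and 0 to 1 without 1 array. Lower checkpoint genes were 2 with median scaling and the filter on all 5 arrays, and 0 to 2 without 1 array. Lower cyclins were 4 with the filter on all 5 arrays (fewer genes tested) and 5 to 10 without 1 array. Lower transcription factors were 1 with no filter, 0 with the filter on all 5 arrays and 1 to 2 without 1 array.

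Signs also turned for PANS2 (0.19 with normexp, -0.68 to 0.25 without 1 array), OSD1 (0.16 with normexp, 0.12 with the series table, -0.35 to 0.13 without 1 array), UBC20 (0.16 with the mean of probes), AT1G76880 (0.047 with normexp, -0.66 to 0.00036 without 1 array), RBR1 (-0.13 to 0.34 without 1 array), GTL1 (0.055 with the replicate block, -0.23 to 0.055 without 1 array) and ARR2 (-0.012 with the series table, -0.068 to 0.18 without 1 array).

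Replicate numbers only name samples. Deviations from the group means correlated at -0.090 and -0.10 in the same-numbered pairs, and with the replicate block FZR2 was at -0.57 and no activator passed. Without the filter the median of all genes was 0.12, and -0.039 to 0.0028 in the other settings.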
